A study of Mus musculus with 4 samples.

Results

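Aminoacyl-tRNA synthetases are the enzymes that join each amino acid to its transfer RNA. The 35 genes described here were chosen by name from a list of these enzymes, not by a threshold on their values, and all 35 were among the 19564 gene symbols with a value in each of 4 libraries. They fell into 20 cytosolic enzymes and 15 mitochondrial enzymes, the latter being the symbols that end in 2. The libraries came from mouse fetal liver at stage E14.5 (embryonic day), a stage at which this organ makes red blood cells. Cells were stained for the erythroid antigen TER119 and for CD71, the transferrin receptor, and sorted without culture into the populations R2, R3, R4 and R5. R2 held proerythroblasts and early basophilic erythroblasts, R3 early and late basophilic erythroblasts, R4 mostly polychromatophilic and orthochromatophilic erythroblasts, and R5 late orthochromatophilic erythroblasts with reticulocytes. No strain, genotype or treatment was given for any population, and all were polyadenylated RNA of freshly sorted cells. Each population gave 1 library, so no difference below has a replicate check and none has a p-value.

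Each synthetase recognises 1 amino acid, apart from Eprs, which carries the enzymes for glutamate and proline in 1 chain. The cytosolic enzymes feed the ribosomes that make nearly all cell protein, including the globin of the red cell, while the mitochondrial enzymes feed the separate ribosomes that make a few subunits of the respiratory chain. All members are encoded in the nucleus. Gars and Kars are known to supply both compartments, and mitochondria charge glutamine by an indirect route, so that no separate mitochondrial enzyme exists for glycine, lysine or glutamine. In the cytosol 8 of the enzymes, those for aspartate, glutamate and proline, isoleucine, leucine, lysine, methionine, glutamine and arginine, are held together in the multi-synthetase complex. ATF4, a transcription factor that is made when amino acids or heme run short, is known to activate a number of cytosolic synthetase genes.

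Promoter sequences of the members were searched for the element known to bind ATF4. The RefSeq table of promoters (build GRCm38.p6, from 250 bases before to 50 bases after each start site) held 27 of the 35 members, 13 cytosolic and 14 mitochondrial. The element, TGATGNAA, was searched on both strands. It was found in 5 of the 13 cytosolic promoters and in 0 of the 14 mitochondrial ones, against 1304 of all 32851 promoters of this length, or 3.97%. Counted per gene, as the members are, it was found in 1219 of 27025 genes, or 4.51%. Among the genes that passed the filter on expression and had a promoter in the table, 2.68% held it. For each of the 5 genes a match is shown with 11 bases on either side, on the gene's strand, 5′ to 3′, with the element in capitals. In all of those shown but Yars it lies on the opposite strand and so reads TTNCATCA.
Aars (chr8:111033840-111033869, + strand): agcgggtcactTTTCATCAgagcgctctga
Gars (chr6:55037960-55037989, + strand): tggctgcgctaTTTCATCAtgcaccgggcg
Iars (chr13:49682126-49682155, + strand): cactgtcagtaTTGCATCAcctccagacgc
Tars (chr15:11399655-11399684, - strand): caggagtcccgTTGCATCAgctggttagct
Yars (chr4:129189895-129189924, + strand): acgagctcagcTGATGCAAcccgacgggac
A match describes these letters and is no proof of binding. The 7 cytosolic members without an entry were Cars, Hars, Lars, Nars, Rars, Vars and Wars.

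Values are RPKM, reads scaled to gene length and library size, so levels of different genes can be set side by side. Ratios are log2 of RPKM + 1 where called log2, which understates the change of low genes, and otherwise plain ratios of RPKM. Calls of higher or lower were made from 2-fold upward. Where 4 values of a gene follow each other, they stand for R2, R3, R4 and R5 in that order. The step size of the values implied 20700000 to 27400000 reads per library. RPKM gives a transcript's share of its library, and in bulk samples fewer cells of a type and less RNA per cell cannot be told apart. The 8 globin genes took 5.52%, 59.4%, 80.4% and 81.9% of the summed values, and every other RPKM is smaller for it. The median of the 9942 genes with at least 1 RPKM in any library had log2 ratios of -1.09, -0.77 and 0.27 for the 3 successive steps from R2 and of -1.65 for R5 relative to R2. Scaling each library to the typical gene (median scaling) gave -0.37, -0.06, 0.07 and -0.42. Taking the globins out gave -0.47, -0.34, 0.18 and -0.68. Erythroid markers were present, though not alone. Slc4a1, Alas2, Klf1, Gata1 and Epor were present in every library, and Tfrc, the gene for CD71, was at 52.1, 133.3, 74.4 and 32.8 RPKM.

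Transcripts of the synthetases were a small share of each library, lowest in R4. Cytosolic members summed to 1648, 744, 301 and 409 RPKM. The mitochondrial members summed to 298, 92.7, 40.2 and 64.3 RPKM. The summed levels thus stood in R4 at 18.3% and 13.5% of those in R2, and in R5 at 24.8% and 21.6%. Of the RPKM that was not globin, the cytosolic members held 0.437%, 0.338%, 0.218% and 0.258%, and the mitochondrial ones 0.0790%, 0.0421%, 0.0291% and 0.0407%.

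The same course, lower in R3 than in R2, lower again in R4 and higher in R5 than in R4 by any amount, was taken by 34 of the 35 members, 19 of 20 cytosolic and all 15 mitochondrial. It was also taken by 69.5% of all genes tested. The count depended on the scaling, being 23 of 35 with median scaling (34.4% of all genes) and 28 of 35 with the globins removed (51.4%). The exception as deposited was Nars, the asparagine enzyme, which was lower in R5 than in R4.

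**Figure D1:**
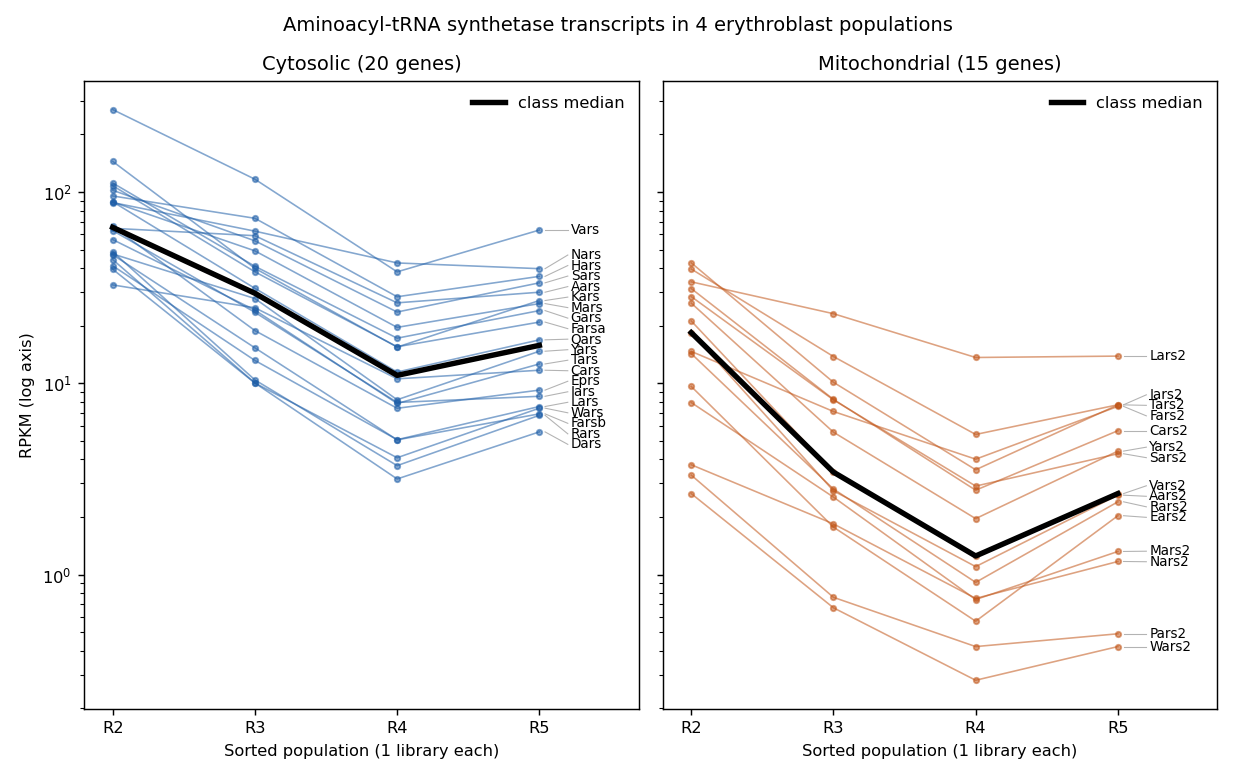
RPKM (log axis) of each synthetase gene in R2, R3, R4 and R5, 1 library each, with cytosolic genes on the left and mitochondrial genes on the right. Thin lines are genes and the black line is the class median, which goes from 65.3 to 29.6, 11.0 and 15.8 RPKM for cytosolic genes and from 18.4 to 3.43, 1.25 and 2.65 RPKM for mitochondrial genes.

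Levels differed widely between members of a class. Vars, the valine enzyme, was at 269.9, 116.7, 38.3 and 63.3 RPKM, and was the highest member in every library except R4. In R4 Nars led, at 42.6 RPKM. The lysine enzyme gene Kars was at 144.6, 39.9, 15.5 and 27.1 RPKM, and fell in the order of the class between R2 and R4. Hars, the histidine enzyme, was at 95.4, 72.9, 28.3 and 36.2 RPKM. It was below 5 other cytosolic genes in R2 but higher in the order of every later library. At the low end of the cytosolic class were Cars in R2, with 32.7 RPKM, Dars and Wars in R3, both with 10.03, and Dars in R4 and R5, with 3.16 and 5.57. All 20 cytosolic genes were at 10 RPKM or more in R2 and in R3, 11 of them in R4 and 13 in R5.

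Mitochondrial members were lower. In R2 17 of the 20 cytosolic genes were above every mitochondrial gene, but only 14 in R3, 9 in R4 and 11 in R5. Tars2, the mitochondrial threonine enzyme, led the class in R2 with 42.6 RPKM and was at 10.1 in R3, 3.53 in R4 and 7.71 in R5. Iars2, for isoleucine, was at 39.6, 13.8, 5.40 and 7.72 RPKM. Lars2, for leucine, was at 33.9, 23.1, 13.6 and 13.9 RPKM, and led the class from R3 on. The lowest member in each library was Wars2, for tryptophan, at 2.65, 0.67, 0.28 and 0.42 RPKM. In R4 6 of the 15 mitochondrial genes were under 1 RPKM and 1, Lars2, was at 10 or more. With the shortest annotated transcript of each gene, the mitochondrial member with the fewest estimated reads in R4, Pars2, had about 25. The cytosolic one, Dars, had about 56, on a transcript of only 645 bases. A longer transcript would give more reads.

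The first step compares R3, the basophilic population, with R2. Synthetase genes were lower in R3 as deposited, but very unevenly, from near equality for the alanine enzyme gene Aars to a 6.72-fold lower value for its mitochondrial counterpart Aars2. On the log2 scale 13 of 20 cytosolic and 12 of 15 mitochondrial genes were at least 2-fold lower and 0 higher. Of all genes tested 55.1% were lower and 3.81% higher, so the cytosolic share is close to the background. The class medians were -1.40 for cytosolic and -1.68 for mitochondrial genes, against -1.09 for all genes. As plain RPKM ratios, 13 of 20 and 14 of 15 were at least 2-fold lower, against 64.7% of all genes, and the medians were 2.70-fold lower for cytosolic, 3.96-fold for mitochondrial and 2.64-fold for all genes. With median scaling 3 of 20 and 6 of 15 were at least 2-fold lower, against 18% of all genes, and with the globins removed 4 and 7, against 22.8%.

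Within the cytosolic class a few genes were nearly as high in R3 as in R2. Aars was at 64.6, 59.1, 26.3 and 29.9 RPKM. Its R3 value was 1.09-fold lower, with a 95% interval of 1.06 to 1.13 from counting error alone. Cars, the cysteine enzyme, was at 32.7, 24.8, 10.6 and 11.7 RPKM. It kept 75.9% of its R2 level in R3. The shares were 76.4% for Hars and 70.9% for Nars, while Yars, the tyrosine enzyme, kept 58.4%, Mars, for methionine, 55.5% and Sars, for serine, 54.4%. With median scaling these 7 genes had log2 ratios at or above 0 in R3 against R2, from 0.00 for Sars to 0.74 for Aars, and with the globins removed from -0.10 for Sars to 0.63 for Aars. The 7 were grouped after their values were seen.

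At the other end, Rars, the arginine enzyme, was at 48.7, 10.4, 3.71 and 6.80 RPKM, a log2 ratio of -2.12 in R3 against R2. Wars followed at -2.04, with 44.35 and 10.03 RPKM. Of the 8 enzymes of the multi-synthetase complex, 7 were at least 2-fold lower in R3 as deposited, with a median of -1.66. Of the 12 free ones 6 were, with a median of -1.03, and of all genes 55.1%. The exception in the complex was Mars, at -0.84, a gene that overlaps the coding gene Ddit3. With median scaling 2 of the 8 and 1 of the 12 were at least 2-fold lower, against 18% of all genes. The division by catalytic fold gave medians of -1.43 for the 10 class I and -1.31 for the 10 class II enzymes. Eprs, which also carries the proline enzyme, was counted once, in class I, by its glutamate part. The 5 genes with the ATF4 element ran from -1.43 for Gars to -0.13 for Aars, with a median of -1.19. The 8 whose promoters lacked it had a median of -1.52. In R4 against R3 the order was the other way, with medians of -1.45 with the element and -1.30 without it, and in R5 against R4 both were close, at 0.46 and 0.45. In R5 against R2 they were -2.08 and -2.35.

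Among mitochondrial genes Aars2 was at 18.4, 2.74, 1.10 and 2.60 RPKM. Vars2, for valine, was at 21.2, 3.43, 1.25 and 2.65 RPKM, a log2 ratio of -2.32 in R3 against R2. Both were thus among the most reduced members of either class. Lars2 kept 68.1% of its R2 level in R3, Nars2 49.1% and Fars2, the phenylalanine enzyme, 48.5%. Nars2 was at 3.75, 1.84, 0.75 and 1.17 RPKM, and Fars2 at 14.7, 7.12, 4.01 and 7.57.

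Markers of other cell types also differed between R2 and the later libraries. The 6 granulocyte markers, led by Mpo, summed to 5615 RPKM in R2 and to 207 to 425 in the other libraries. All 6 were at least 2-fold lower in R3, as were 55.1% of all genes. In R2 the granulocyte sum exceeded the 2558 RPKM of the 8 erythroid markers, whose sum in the later libraries was 34210 to 52495. The 4 progenitor markers (Kit, Gata2, Cd34 and Myb, of which Kit, Gata2 and Myb are also known from early erythroid cells) summed to 151 RPKM in R2 and 8.16 to 13.0 elsewhere, again with 4 of 4 lower. Macrophage markers (6 genes) summed to 71.8 RPKM in R2 and 14.4 to 33.8 elsewhere, and hepatocyte markers (4 genes) ranged from 132 in R4 to 395 in R3. Megakaryocyte markers (4 genes) ranged from 21.1 in R4 to 61.7 in R5. The 4 lymphoid markers summed to 25.0 RPKM in R2 and to 1.15 to 2.5 elsewhere, with Cd3e at 0 in every library. Cd3e was the 1 marker of these lists at 0. In R3 against R2, 2 of 6 macrophage markers and all 3 lymphoid markers past the filter were also at least 2-fold lower. No megakaryocyte or hepatocyte marker was. Of these, 1 of 4 megakaryocyte and 4 of 4 hepatocyte markers were at least 2-fold higher, as were 3.81% of all genes. The part of the markers in the synthetase values was not tested. With R2 not used, R5 against R3 gave a log2 median of -0.86 for cytosolic and -0.28 for mitochondrial genes, against -0.47 for all genes.

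**Figure D2:**
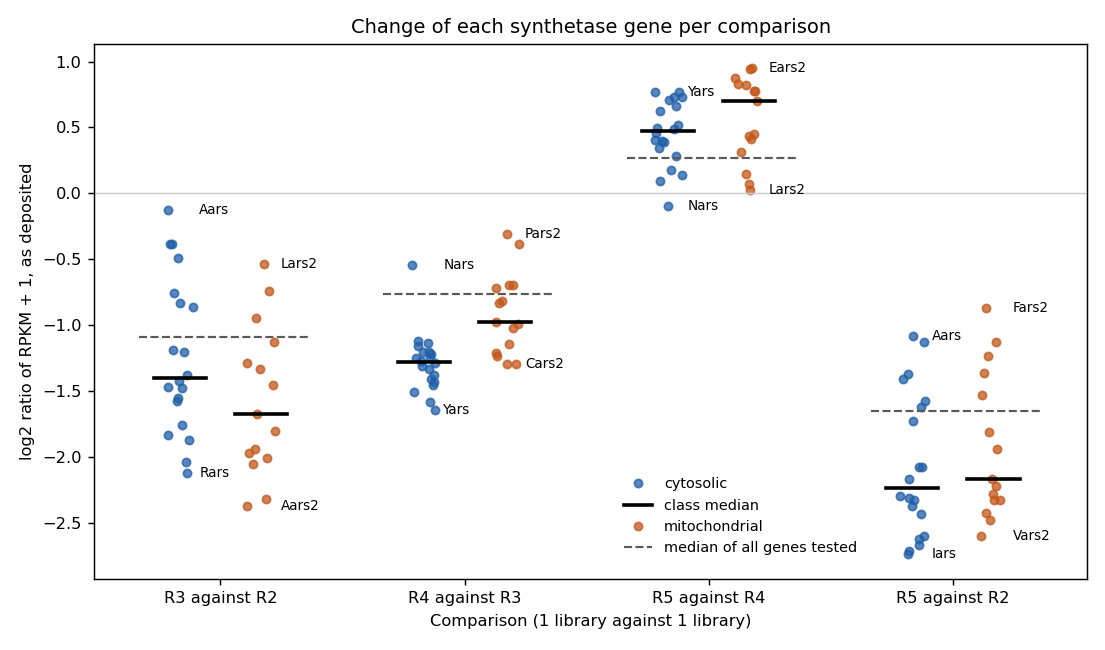
Log2 ratio of RPKM + 1, as deposited, for each synthetase gene in the 4 comparisons (blue, 20 cytosolic; orange, 15 mitochondrial), with the class median as a black bar and the median of all 9942 genes as a dashed line. All members lie below 0 except in R5 against R4, where all but Nars lie above it.

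R4 against R3 covers the step from basophilic to later erythroblasts. Cytosolic synthetase genes were lower by a similar factor here, in contrast to their spread in the step before. On the log2 scale 19 of 20 cytosolic and 6 of 15 mitochondrial genes were at least 2-fold lower and 0 higher, where 32.1% of all genes were lower and 0.493% higher. Medians were -1.28 for cytosolic genes, -0.98 for mitochondrial genes and -0.77 for all genes. The gap between the classes closed with a pseudocount of 0.1 RPKM, which gave -1.36 and -1.39, and with median scaling, which gave -0.27 for both. As plain ratios 19 of 20 and 12 of 15 were at least 2-fold lower, against 64.3% of all genes, with medians 2.58-fold, 2.74-fold and 2.28-fold lower.

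The cytosolic exception was again Nars, at 88.1, 62.4, 42.6 and 39.7 RPKM. Its R4 value was 1.47-fold lower than that in R3, while the other 19 were 2.24-fold to 3.38-fold lower. Yars was the lowest, at 47.5, 27.7, 8.20 and 14.7 RPKM, a log2 ratio of -1.64. All 8 genes of the complex were at least 2-fold lower as deposited, against 32.1% of all genes, with log2 ratios between -1.45 and -1.22. Of the 12 free enzymes 11 were, with a median of -1.23 against -1.30 for the complex. In the mitochondrial class Lars2 was 1.69-fold, Fars2 1.78-fold and Pars2, for proline, 1.81-fold lower, and the others 2.39-fold to 3.43-fold. Pars2 was at 3.31, 0.76, 0.42 and 0.49 RPKM. Cars2, at 31.3, 8.24, 2.76 and 5.65 RPKM, had the lowest log2 ratio of this class, -1.30. After median scaling no member of either class was 2-fold lower in this step, against 0.382% of all genes, and with the globins removed 1 cytosolic member, Yars, was, against 2.83%.

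R5 against R4 covers the last step, to late orthochromatophilic erythroblasts and reticulocytes. As deposited, 34 of 35 synthetase genes were higher in R5, and with median scaling 14 of 20 cytosolic and 13 of 15 mitochondrial genes were. Of all genes 76.2% were higher as deposited and 57.2% with median scaling. The median of the mitochondrial genes was the higher one, except with a pseudocount of 5 RPKM. On the log2 scale 0 of 35 members reached 2-fold in either direction. Of all genes tested, 3.96% reached it upward and 0.604% downward. Medians were 0.47 for cytosolic genes, 0.70 for mitochondrial genes and 0.27 for all genes. As plain ratios 7 of 15 mitochondrial and 0 of 20 cytosolic genes were at least 2-fold higher, against 20.1% of all genes. The medians were 1.41-fold for cytosolic, 1.89-fold for mitochondrial and 1.39-fold for all genes, so that the cytosolic value lies at the background.

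The 7 were Aars2, Cars2, Ears2, Rars2, Tars2, Vars2 and Yars2. Ears2, the glutamate enzyme, was at 9.63, 1.77, 0.57 and 2.03 RPKM. Its ratio of 3.56 in R5 against R4 had a counting interval of 2.34 to 5.52 and rested on about 86 and 32 reads. Rars2 followed at 2.64-fold, with an interval of 1.82 to 3.80. For 6 of the 7, all but Ears2, the counting interval reached below 2-fold, and 11 of the 15 mitochondrial intervals included 2-fold. Counting intervals reached 1 for Lars2, Pars2 and Wars2 and, among cytosolic genes, for Cars and Iars. For these 5 genes counting error alone covers the difference of R5 and R4 as deposited. The intervals leave out the spread between replicates, so they do not show that the other genes differ between the populations. Among cytosolic genes the highest log2 ratio was that of Yars, 0.77, at 1.79-fold. Summed markers of other cells also stood higher in R5 than in R4, where 76.2% of all genes were higher. The sums went from 207 to 425 RPKM for granulocyte, 14.4 to 33.8 for macrophage, 21.1 to 61.7 for megakaryocyte and 132 to 282 for hepatocyte markers. On the log2 scale 2 of 6, 2 of 6, 3 of 4 and 3 of 4 of these were at least 2-fold higher, against 3.96% of all genes. No lymphoid or progenitor marker was. The part of all these markers in the higher synthetase values was not tested.

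R5 against R2 spans the whole course. It shares its libraries with the steps and adds no independent evidence. All 20 cytosolic genes and 14 of 15 mitochondrial genes were at least 2-fold lower in R5 and 0 higher, where 76.9% of all genes were lower and 2.74% higher. Medians were -2.24 and -2.17, against -1.65 for all genes, and 24 of the 35 members lay below that all-gene value. As plain ratios 20 of 20 and 14 of 15 were at least 2-fold lower, against 84.3% of all genes, and the medians were 4.89-fold lower for cytosolic, 5.94-fold for mitochondrial and 4.60-fold for all genes. With median scaling 5 of 20 and 3 of 15 were at least 2-fold lower, against 13.7% of all genes, and with the globins removed 10 of 20 and 8 of 15, against 29.8%.

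The lowest cytosolic log2 ratios were those of Iars at -2.74, Eprs at -2.72 and Rars at -2.67, all enzymes of the complex. Iars, for isoleucine, was at 62.9, 23.5, 7.94 and 8.55 RPKM, and Eprs at 66.1, 18.9, 7.40 and 9.21. The complex had a median of -2.50, with 8 of 8 below the all-gene median, and the free enzymes one of -1.85, with 6 of 12 below it. With median scaling, and also with the globins removed, 7 of 8 and 6 of 12 were below it. The highest cytosolic ratios as deposited were those of Aars at -1.09, Nars at -1.13 and Hars at -1.37. Under median scaling these 3 and Cars were above 0 (0.48, 0.44, 0.20 and 0.11), and with the globins removed Aars and Nars were (0.14 and 0.10), Hars and Cars being at -0.14 and -0.22. In the mitochondrial class Vars2 at -2.60, Sars2 at -2.48 and Aars2 at -2.43 were lowest. Sars2, for serine, was at 28.4, 8.19, 2.90 and 4.28 RPKM. Fars2 at -0.87, Nars2 at -1.13 and Lars2 at -1.23 were highest. Fars2 was the 1 member short of 2-fold, with a plain ratio of 1.94-fold lower and a counting interval of 1.59 to 2.37. The reads behind that interval were estimated on a transcript of only 962 bases, and a longer one would narrow it.

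The members not yet given in every library took the same course. In the complex, Dars, for aspartate, was at 39.5, 10.03, 3.16 and 5.57 RPKM. Mars was at 88.7, 49.2, 19.6 and 26.1 RPKM, and Qars, for glutamine, at 89.0, 31.4, 11.5 and 16.9. Mars was the member of the complex that kept the most of its R2 level in R5, 29.4%. Among the free enzymes Gars, for glycine, was at 111.5, 40.9, 17.2 and 24.0 RPKM. Sars was at 102.2, 55.6, 23.6 and 33.5 RPKM, and Tars, for threonine, at 56.4, 24.1, 7.84 and 12.6. Wars, for tryptophan, was at 44.35, 10.03, 4.08 and 7.41 RPKM. All 4 were lowest in R4 and at 16.7% to 32.8% of their R2 level in R5. In the mitochondrial class Mars2, for methionine, was at 7.93, 2.54, 0.74 and 1.32 RPKM. Rars2, for arginine, was at 14.3, 2.80, 0.91 and 2.40 RPKM, and Yars2, for tyrosine, at 26.3, 5.55, 1.96 and 4.42. These 3 were also lowest in R4.

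**Figure D3:**
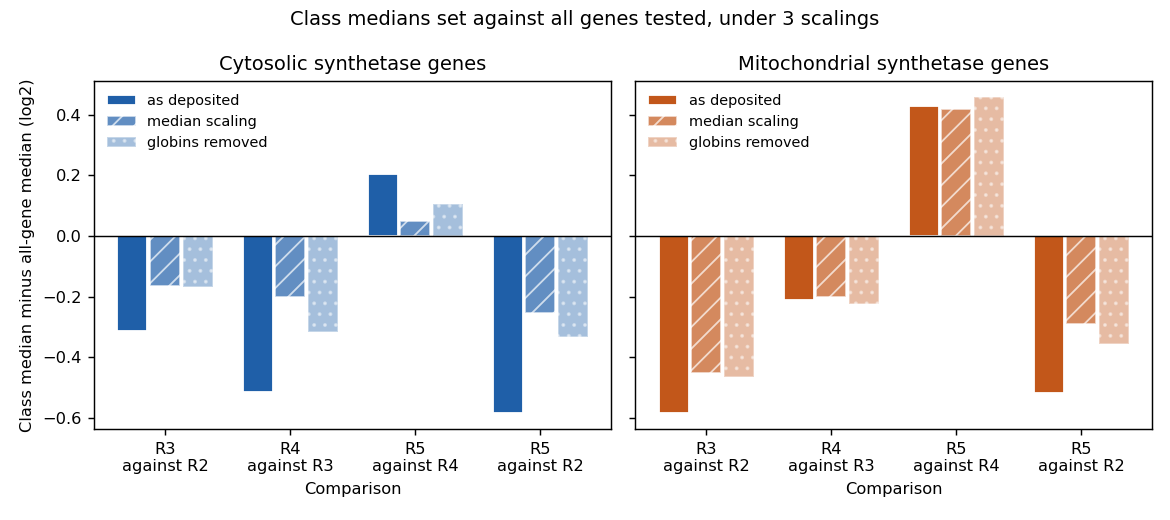
Class median minus the median of all genes tested (log2) for each comparison, as deposited, with median scaling and with the globin genes removed (left, cytosolic; right, mitochondrial). In every comparison the bars keep one sign under the 3 scalings, all with a pseudocount of 1 RPKM. In R5 against R4 they run from 0.05 to 0.21 for cytosolic and from 0.42 to 0.46 for mitochondrial genes.

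A ratio of 2 genes within a library does not depend on how libraries are scaled. In 15 pairs of a cytosolic and a mitochondrial enzyme for the same amino acid, the cytosolic transcript was the higher one in all 15 in R2 and in 14 in each later population. The median ratio was 3.60, 6.78, 8.13 and 4.54. The ratio was higher in R3 than in R2 in 12 of the 15 pairs, and lower in R5 than in R4 in 12. In R4 against R3 it was higher in 7 pairs and lower in 8, with a median change of 0.973-fold. The larger median ratio in R4 thus does not stand for a common rise. In R5 against R2 it was higher in 9 pairs and lower in 6. Eprs stands in 2 pairs, with Ears2 and with Pars2, so the pairs are not all separate genes. Of the 15, alanine had the largest change from R2 to R3, 6.14-fold, with Aars at 3.51, 21.6, 23.9 and 11.5 times Aars2. Asparagine had the highest ratio in R2, R4 and R5, with Nars at 23.5, 33.9, 56.8 and 34.0 times Nars2. In R2 the lowest ratio was that of cysteine, with Cars at 1.04 times Cars2, but at 3.01, 3.82 and 2.07 times in the later populations.

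Leucine, phenylalanine and tryptophan were the 3 with a lower ratio in R3, tryptophan by little, with Wars at 16.7 and then 15.0 times Wars2. Lars, the cytosolic leucine enzyme, was at 41.2, 13.2, 5.07 and 7.56 RPKM. It stood at 1.21 times Lars2 in R2 and then below it, at 0.569, 0.372 and 0.545 times. Farsa stood at 7.35, 5.37, 3.87 and 2.76 times Fars2. Farsa and Farsb encode the 2 subunits of the cytosolic phenylalanine enzyme. Farsa was at 107.9, 38.3, 15.5 and 20.9 RPKM, and Farsb at 47.0, 15.3, 5.06 and 6.92. Their ratio was 2.30, 2.50, 3.07 and 3.02, so both subunits followed the same course.

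**Figure D4:**
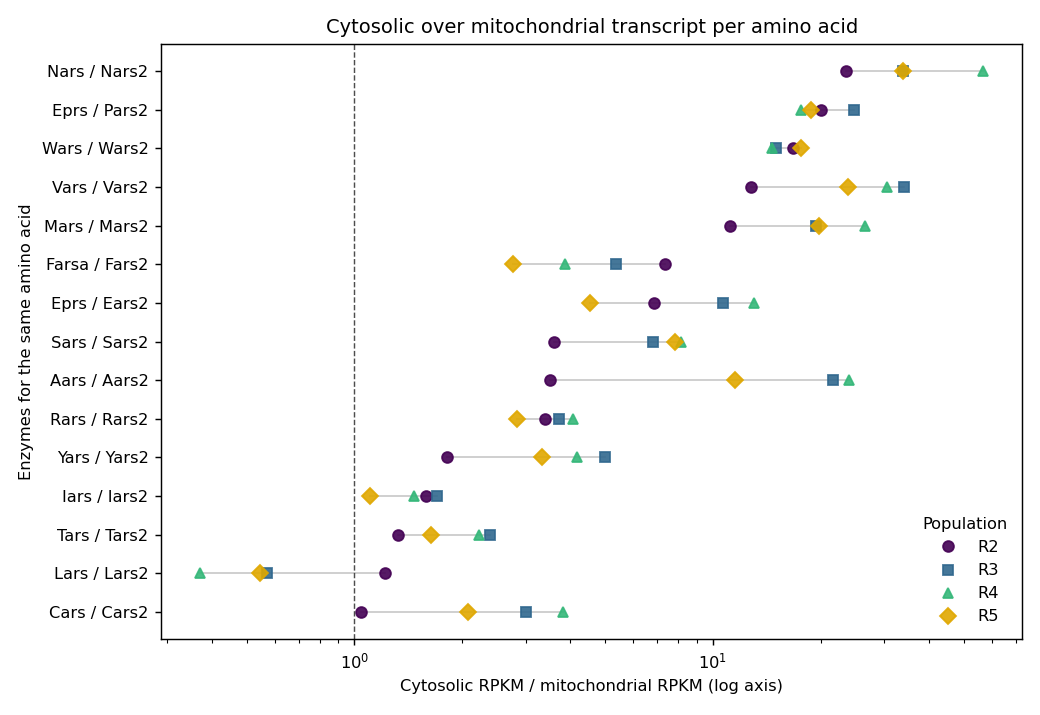
RPKM of the cytosolic enzyme over that of the mitochondrial enzyme for the same amino acid (log axis), by population, 1 library each, with the 15 pairs ordered by their ratio in R2. Most pairs lie further right in R3 and R4 than in R2. Lars / Lars2 crosses 1 and Farsa / Fars2 moves left from 7.35 to 2.76.

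Other genes of the charging pathway were lower late as well, in values as deposited. With median scaling 1 of the 12 genes named next was still at least 2-fold lower in R5 than in R2, against 13.7% of all genes, and all 12 kept ratios below 0. The 3 scaffold proteins of the multi-synthetase complex were all at least 2-fold lower in R5 than in R2, as were 76.9% of all genes. Their median was -2.23, against -1.65 for all genes. Aimp1 was at 48.5, 17.1, 6.53 and 9.56 RPKM, and Eef1e1 at 34.4, 10.3, 4.15 and 6.24. Aimp2 was less reduced late, at 76.6, 29.7, 20.3 and 23.2 RPKM. Hars2, the mitochondrial histidine enzyme, which is not among the 35, was at least 2-fold lower too, at 8.95, 3.32, 1.11 and 1.45 RPKM.

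The indirect route to mitochondrial glutamine uses an amidotransferase of 3 subunits, encoded by Qrsl1, Gatc and Pet112l, and mitochondrial initiation needs the formyltransferase Mtfmt. All 4 were at least 2-fold lower in R5 than in R2, where 76.9% of all genes were, and their median of -1.73 was close to the -1.65 of all genes. In R2 and R5 Qrsl1 was at 6.20 and 1.19 RPKM, Gatc at 16.9 and 3.63, Pet112l at 8.45 and 1.83 and Mtfmt at 5.66 and 1.69. The elongation factors that carry charged transfer RNA to the ribosome were lower as well. Eef1a1, in the cytosol, went from 3691 to 775 RPKM and Tufm, in mitochondria, from 165 to 25.2. Of the proofreading genes, Aarsd1 went from 77.1 to 17.5 RPKM and Dtd1 from 27.1 to 4.29, and Prorsd1 had no matching symbol.

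A list of ATF4, its known targets and Eif2ak1, the heme-sensing kinase that acts upstream of it, was less uniform. Of 18 listed genes 15 passed the filter. In R3 against R2 2 of these were at least 2-fold higher and 4 lower, where 3.81% of all genes were higher and 55.1% lower. In R5 against R2 1 was higher and 6 lower, where 2.74% and 76.9% of all genes were. The list's medians were -0.19 and -0.65, against -1.09 and -1.65 for all genes. The direction turned with the scaling: for R5 against R2 the median was 0.78 with median scaling, with 6 higher and 2 lower (9.42% and 13.7% of all genes), and 0.43 with the globins removed, with 3 higher and 2 lower (7.35% and 29.8%). Atf4 itself was at 120.8, 105.7, 59.5 and 68.7 RPKM. Eif2ak1, which is not a target, was at 48.1, 138.5, 165.5 and 114.8 RPKM and was the 1 higher gene in R5 and 1 of the 2 in R3. Asns, the asparagine synthetase that makes the free amino acid, was at 106.9, 89.1, 34.2 and 31.2 RPKM, while the serine synthesis gene Phgdh was at 137.9, 20.7, 6.20 and 16.2. The other gene higher in R3 was Chac1, a glutathione-degrading enzyme, at 0.51 RPKM in R2 and 2.08 in R3. The lower ones in R3 were Phgdh, Psat1, Psph and Shmt2.

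Overlapping genes limit some members. In the GRCm38 annotation 7 of the 35 overlap another protein-coding gene: Aars (Ddx19b), Farsb (Sgpp2), Hars (Hars2), Mars (Ddit3), Wars (Wdr25), Iars2 (Rab3gap2) and Rars2 (Orc3). Whether counting used strand is not given in the sources used here, so reads in the shared stretches cannot be told apart. Aars, Hars and Mars are among the cytosolic genes described above as keeping the most of their R2 level in R3. Ddit3 was at 22.5 RPKM in R2 and 34.3 in R3, whereas Hars2 was lower in R3. The part of overlapping genes in these values was not tested.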

How the data were processed

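The authors deposited 1 RPKM value per gene symbol and library, per the file headers, with 2 decimals. Per the labels' protocols, libraries were made from polyadenylated RNA and sequenced on a Solexa instrument, and per the submitters' processing notes the build was mm9. Which aligner, counter and annotation were used is not stated in these sources. No coordinates of mm9 are printed, and promoters come from RefSeq for GRCm38.p6. Members and lists were chosen with earlier results of these data known. Genes with at least 1 RPKM in any of the 4 libraries were kept (9942), and log2 ratios used a pseudocount of 1 RPKM. Alternatives were pseudocounts of 0.1 and 5, no filter or one of 5 RPKM, scaling by the median gene ratio over 2745 genes, removal of 8 globin genes, and R5 against R3. Leaving out overlapping members was added after seeing the data. Named genes were, per class, the 4 highest by mean RPKM, the 3 highest and 3 lowest ratios of R5 against R2, the extremes of each step and pair, the phenylalanine subunits and all members of small pathway lists. A few items this rule selects are left out here. Other members named, among them Mars, Sars, Wars, Dars and Rars2, were chosen after their values were seen. A planned comparison of residues in globin with synthetase levels was not run, since no protein sequences were used here.

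Reads per library (23000000, 25600000, 27400000 and 20700000 from R2 to R5) were derived from values that are whole multiples of 1 unit in genes with few countable bases. For R3 the first unit gave 85.5% even counts (43.1% to 52.8% in the others), so it was doubled. Reads per member used the shortest RefSeq-linked GENCODE transcript of GRCm38, so they are low estimates for genes with longer transcripts. The gene length behind the deposited RPKM is not stated. Where that length was shorter, the estimated reads are too high and the intervals too narrow. The 95% intervals (exact binomial, scipy 1.17.1) cover counting error only. Steps were tested on simulated data. With 1 library per population no replicate number pairs samples.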

Additional observations from a re-analysis of the deposited data

How the results depend on the processing

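No paired analysis was possible because each population has 1 library. Log2 medians are given in the order R3 against R2, R4 against R3, R5 against R4 and R5 against R2. As reported they were -1.40, -1.28, 0.47 and -2.24 for cytosolic and -1.68, -0.98, 0.70 and -2.17 for mitochondrial genes, with differences (cytosolic minus mitochondrial) of 0.27, -0.30, -0.22 and -0.066. With a pseudocount of 0.1 they were -1.43, -1.36, 0.49 and -2.29, then -1.91, -1.39, 0.90 and -2.45, with differences of 0.48, 0.027, -0.41 and 0.16. With a pseudocount of 5 they were -1.30, -1.06, 0.36 and -2.00, then -1.25, -0.43, 0.29 and -1.38, with differences of -0.052, -0.63, 0.064 and -0.62. With median scaling they were -0.53, -0.27, 0.12 and -0.67, then -0.82, -0.27, 0.49 and -0.71, with differences of 0.29, -0.0015, -0.37 and 0.035. With the globins removed they were -0.64, -0.66, 0.29 and -1.02, then -0.94, -0.57, 0.64 and -1.04, with differences of 0.30, -0.089, -0.35 and 0.022. A filter of 5 RPKM left the cytosolic medians as they were and gave mitochondrial ones of -1.87, -1.01, 0.78 and -2.25, with differences of 0.47, -0.27, -0.30 and 0.014, and no filter changed no member value. Without the 7 overlapping members, 28 remained, with cytosolic medians of -1.43, -1.28, 0.50 and -2.30, mitochondrial ones of -1.68, -0.83, 0.70 and -1.94, and differences of 0.25, -0.44, -0.20 and -0.36. For R5 against R3 in place of R5 against R2 the medians were -0.86 and -0.28, a difference of -0.58. Both class medians thus kept their sign under all of these, while the difference between classes changed sign in 7 of 29 alternatives, with the pseudocount, the filter or the scaling, and the cause was not tested. The all-gene medians also moved with the pseudocount. With 0.1 they were -1.37, -1.11, 0.44 and -2.13, and with 5 they were -0.65, -0.36, 0.10 and -0.96. The size of the gap between a class and all genes thus depends on the pseudocount. Counts of members at least 2-fold lower changed with the scaling and the pseudocount. For mitochondrial genes in R4 against R3 they were 6 of 15 as reported (32.1% of all genes), 12 with a pseudocount of 0.1 and 0 with one of 5. In R3 against R2 they were 3 of 20 and 6 of 15 with median scaling (18% of all genes) and 4 and 7 with the globins removed (22.8%). In R5 against R3 they were 3 of 20 and 0 of 15. The shares of all genes for the changed pseudocounts and for R5 against R3 are not given here, so those counts have no background beside them. Depth limits the mitochondrial members most: in R4 6 of the 15 were backed by under 100 estimated reads.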
